A study of Mus musculus with 63 samples.

Results

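The dentate gyrus (DG) and area CA3 of synaptopodin-deficient hippocampal cultures were compared 3 days after an entorhinal cortex lesion (3 dp ECL). The members were the libraries titled as synaptopodin-deficient, lesioned DG tissue and CA3 tissue, which gave 4 DG and 6 CA3 libraries, 10 of the 63 libraries of the series. Each library was made from a single piece of DG or CA3 that was cut by scalpel from 1 entorhino-hippocampal tissue culture, prepared from B6.129-Synpo tm1Mndl/Dllr (Synpo-/-) mice of either sex at postnatal days 3 to 5 and kept for at least 18 days in vitro. The lesion cut the perforant path, and all 10 libraries came from lesioned cultures. Whether a DG and a CA3 library came from the same culture is not stated. Non-lesioned Synpo-/- cultures (7 DG and 6 CA3 libraries) and lesioned C57BL/6J wildtype (Synpo+/+) cultures (7 DG and 3 CA3 libraries) served for comparison, and none of them shared a library with the lesioned Synpo-/- cultures. The study names no litter, preparation day or sequencing batch for these libraries, so p-values measure the spread between single pieces of tissue.

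The granule cells of the DG receive the perforant path on their outer dendrites and lose this input when the entorhinal cortex is cut off. Their axons, the mossy fibres, run to CA3 and end on large spines of the CA3 pyramidal cells, where zinc-rich terminals release glutamate. The perforant path also reaches the CA3 pyramidal cells, so the lesion removes part of the input of both regions. Synaptopodin is the protein needed to form the spine apparatus, a stack of endoplasmic reticulum in dendritic spines that stores calcium. After entorhinal denervation the outer layers of the DG are known for a rapid response of microglia and astrocytes.

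Libraries held 19044938 to 31740658 counts in DG and 21657030 to 26810419 in CA3. Mitochondrially encoded genes took 6.54% to 8.20% of counts in DG and 6.24% to 13.3% in CA3. The targeted gene was not lower in libraries labelled Synpo-/-: Synpo had 32.6 to 43.1 CPM (counts scaled by the library total) in DG and 34.3 to 44.6 in CA3, against 25.0 to 36.9 and 28.4 to 33.3 in the lesioned wildtype libraries. Its count thus gave no check of the genotype, which rests on the labels. DG replicate 2 stood apart with transcripts of the choroid plexus, the epithelium that makes cerebrospinal fluid. Its Ttr (transthyretin) count was 208164, against 131, 3315 and 367 in the other DG libraries and 141 to 696 in CA3. CA3 replicate 6 had the lowest Iyd level and the highest mitochondrial share. In the wildtype, the library labelled DG replicate 5 had 12.7 CPM of Prox1, where the other 6 DG libraries had 182 to 235, and wildtype results are therefore also given without it.

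The labels of region were met by the granule cell markers in all 10 libraries. Prox1, the transcription factor that specifies granule cells (GRCm38 chromosome 1, 190118035 to 190170714), had normalized counts of 4743, 4367, 5106 and 4335 in DG and of 379 to 649 with a median of 465 in CA3. The groups did not overlap, and the level was 9.38 times higher in DG (log2 difference, DG minus CA3, 3.23 ± 0.16 SE, adjusted p = 2.7e-08, edgeR quasi-likelihood test). Dsp, which encodes the junction protein desmoplakin (chromosome 13, 38151294 to 38198577), had 462, 465, 643 and 219 in DG and 28 to 76 with a median of 51.5 in CA3. These values did not overlap either (log2 3.05 ± 0.29, adjusted p = 8.1e-06).

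The CA3 marker Iyd, an iodotyrosine deiodinase (chromosome 10, 3540240 to 3554877), was a weaker guide. It had 71, 102, 129 and 114 in DG and 58 to 458 with a median of 246 in CA3. CA3 replicate 6 lay below every DG library, so the groups overlapped. Its log2 difference was -1.23 ± 0.38 (adjusted p = 0.045). The adjusted p was between 0.000343 and 0.142 over the alternative fits, highest without DG replicate 1. It was lowest with a replicate block, a fit that also left out CA3 replicates 5 and 6. The call was lost on leaving out any DG library or any of CA3 replicates 2 to 5. Synpo, given for its place in the design, had 927, 987, 997 and 791 in DG and 847 to 1068 with a median of 975 in CA3, a log2 difference of -0.07 ± 0.10 (adjusted p = 0.74).

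**Figure D1:**
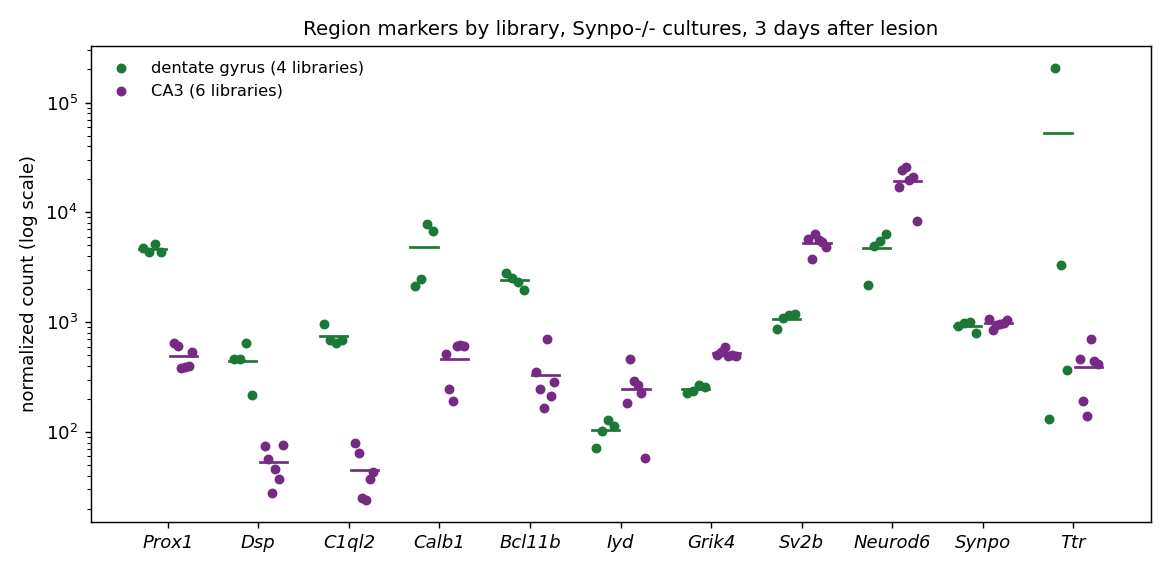
Normalized counts (vertical axis, log scale) of 9 region markers, Synpo and Ttr in each lesioned Synpo-/- library, with DG libraries in green, CA3 libraries in purple and the group means as lines. Prox1, Dsp and C1ql2 do not overlap between regions, Iyd and Synpo do, and Ttr reaches 208164 in a single DG library.

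Of 22767 genes tested, 1678 were higher in DG and 1420 were higher in CA3 at an adjusted p under 0.05, which is 7.37% and 6.24% of the genes tested. With a fold over 2 as well, 871 genes (3.83%) were called, of which 547 (2.4%) were higher in DG and 324 (1.42%) were higher in CA3. Among the 8730 genes with a mean normalized count over 300 the balance of these calls over 2-fold turned, with 122 higher in DG and 142 higher in CA3. The median log2 difference of all genes tested was 0.03. Without DG replicate 2 and CA3 replicate 6, the counts with no fold limit were 1667 in DG and 2184 in CA3. They were 1811 and 2104 with DESeq2 and 1959 and 2447 with a replicate block. The block fit kept only replicate numbers found in both regions, so it also left out CA3 replicates 5 and 6. Leaving out any of CA3 replicates 2 to 6 also gave more calls in CA3. Which region had more calls thus depended on the fit. In bulk tissue, fewer cells of a type and less RNA per cell cannot be told apart, and this holds for every difference below.

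Most region differences pointed the same way in the non-lesioned Synpo-/- cultures. Among the genes tested in both, 1394 of the 1664 called higher in DG after lesion (83.8%) had the same sign there, and so had 1359 of the 1408 called higher in CA3 (96.5%). The control comparison called 25.5% of its 21408 genes, 13.1% higher in DG and 12.5% higher in CA3. Called in the same direction in both were 954 DG genes, 57.3% of the lesioned calls and 34.7% of the 2750 control calls, and 1047 CA3 genes, 74.4% and 39.3% of the 2666. In the opposite direction, control cultures called 43 genes of the DG set and 4 of the CA3 set. In lesioned wildtype cultures without the library in doubt, 1652 of 1677 DG genes (98.5%) and 1407 of 1412 CA3 genes (99.6%) had the same sign. With that library the shares were 99.0% and 99.3%, but 492 genes (2.05%) were called, 1.54% higher in DG and 0.508% higher in CA3, against 4746 (19.8%) without it, 7.51% and 12.3%.

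**Figure D2:**
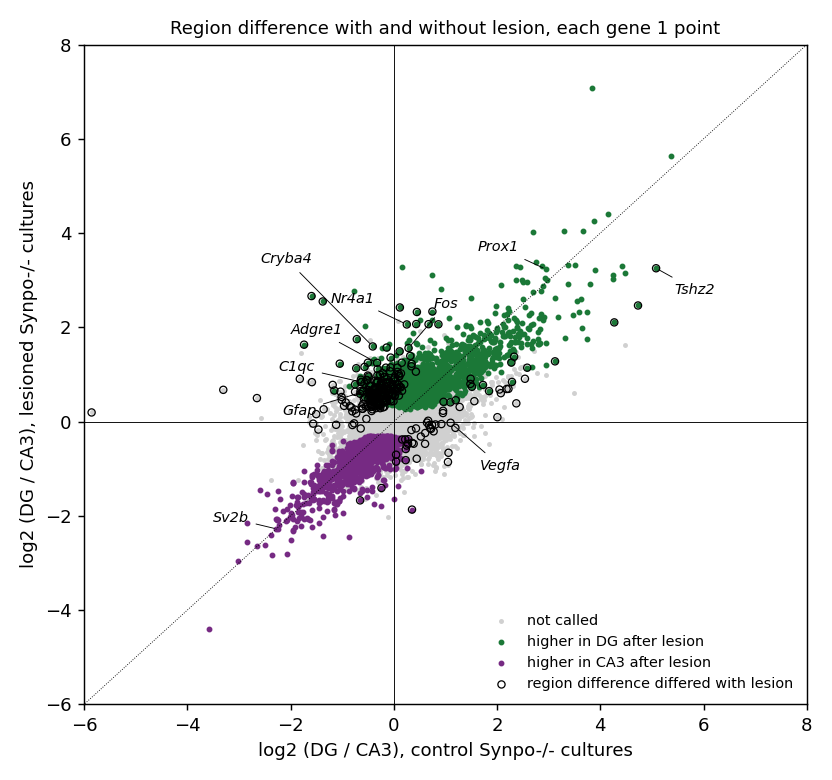
Log2 ratio of DG to CA3 in control (horizontal axis) and lesioned (vertical axis) Synpo-/- cultures for the 21081 genes tested in both, with genes called after lesion in green and purple. Most lie near the dotted line of equal difference, and circles mark genes whose region difference differed with the lesion, many of them near 0 in control cultures and above 0 after lesion.

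Granule cell genes made the clearest group. Of 15 granule cell markers, 12 were higher in DG, 1 was higher in CA3 and 2 were not called, with a median log2 difference of 1.97. C1ql2, a secreted synaptic organizer of mossy fibre terminals, had 964, 687, 652 and 695 normalized counts in DG and 24 to 80 with a median of 40.5 in CA3. It was 16.4 times higher in DG with no overlap (log2 4.04 ± 0.26, adjusted p = 3.5e-07). The calcium-binding protein Calb1 had 2138, 2458, 7881 and 6811 in DG and 190 to 616 in CA3. The libraries of the DG thus fell apart into a lower and a higher pair of Calb1 values, all above CA3 (log2 3.38 ± 0.39, adjusted p = 4.6e-05). The list's member that went the other way was Il16, an interleukin precursor with 189 to 373 in DG and 598 to 803 in CA3 (log2 -1.18 ± 0.17). Tdo2, a tryptophan-degrading enzyme of mature granule cells, was not called (log2 0.74 ± 0.28, adjusted p = 0.10), nor was Lct (log2 0.79 ± 0.53).

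Among the 12 most significant DG genes over 2-fold, the peptide precursor Nts (neurotensin) differed by the largest amount. It had 1747, 648, 899 and 822 in DG and 6 to 42 with a median of 16.1 in CA3 (log2 5.64 ± 0.37, adjusted p = 3.5e-07). Sema5a, a transmembrane semaphorin that limits synapses on granule cells, had 3608, 3788, 3261 and 3156 in DG and 544 to 787 in CA3 (log2 2.43 ± 0.11, adjusted p = 2.7e-08). The others were Pter (log2 3.31 ± 0.19), the cell adhesion gene Cntn4 (2.15 ± 0.14), the SNARE-binding Stxbp6 (1.98 ± 0.13), the exchange factors for small GTPases Dock10 (1.72 ± 0.11) and Tiam1 (2.12 ± 0.14), the transcription factor Rfx3 (1.69 ± 0.11), the Kit ligand gene Kitl (1.90 ± 0.13) and Sipa1l2 (1.62 ± 0.12). In all 12, Prox1 and C1ql2 included, every DG library was above every CA3 library. The genes were chosen by p from these same libraries, so this separation adds no support. All 12 were also called higher in DG in control cultures, which share no library with them.

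CA3 markers differed by smaller amounts. Of 14 CA3 pyramidal markers, none was higher in DG, 8 were higher in CA3 and 6 were not called, with a median of -1.04. Beside Iyd, the called members included Spock1, a proteoglycan of the extracellular space (log2 -1.88 ± 0.15), Nectin3, an adhesion molecule on the CA3 side of the mossy fibre junction (-1.54 ± 0.13), the kainate receptor subunit gene Grik4 (-1.07 ± 0.11) and Socs2, a suppressor of cytokine signalling (-1.47 ± 0.21). Coch, Cdh24, Prkcd, Galnt3, Tspan18 and Nnat were not called, with log2 differences from -0.59 to 0.34. Without both libraries in doubt the list still had 8 calls in CA3.

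The 12 most significant CA3 genes over 2-fold were led by Cabp7, a calcium-binding protein. It had 203, 251, 324 and 309 in DG and 1055 to 1191 with a median of 1080 in CA3 (log2 -2.0 ± 0.13, adjusted p = 3.5e-07). Sv2b, a protein of synaptic vesicles, had 858, 1101, 1166 and 1183 in DG and 3731 to 6393 with a median of 5441 in CA3. It was 4.88 times higher in CA3 with no overlap (log2 -2.29 ± 0.15, adjusted p = 4.3e-07). Strip2 had the largest difference of the 12 (-2.65 ± 0.23), followed by Lsm11, a component of the small ribonucleoprotein that processes histone mRNA (-2.31 ± 0.16). The remaining genes were Fstl5 (-1.92 ± 0.13), the protein kinase C gene Prkca (-1.55 ± 0.11), Nrip3 (-2.07 ± 0.15), the sulfotransferase gene Ust (-1.54 ± 0.12), Spock1, Hapln4, Nectin3 and the calmodulin-dependent kinase gene Camk1d (-1.48 ± 0.13). All 12 were called in CA3 in the control cultures too.

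Transcription factors of the hippocampal regions were divided. Of 21 listed, 6 were higher in DG, 4 were higher in CA3 and 11 were not called, with a median of 0.10. Bcl11b (Ctip2), which granule cells keep and CA3 cells lack, had 2782, 2526, 2341 and 1963 in DG and 166 to 709 with a median of 267 in CA3 (log2 2.87 ± 0.30, adjusted p = 1.7e-05). Mef2c, an activity-regulated factor, was higher in DG (1.19 ± 0.10), as were Emx2 (0.55 ± 0.11) and Tbr1 (0.61 ± 0.13). On the CA3 side, Neurod6 had 2167, 4901, 5538 and 6374 in DG and 8382 to 26093 with a median of 20338 in CA3 (-2.03 ± 0.31, adjusted p = 0.00045). Its groups did not overlap. Bcl11a (-0.82 ± 0.13), Klf7 (-0.57 ± 0.12) and Etv1 (-1.29 ± 0.27) were also higher in CA3. Zbtb20, a factor shared by hippocampal neurons, was not called (-0.19 ± 0.12).

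Genes of the mossy fibre synapse sorted with the side of the synapse only in part. In the presynaptic list of 16 genes, 4 were higher in DG and 5 were higher in CA3. The DG genes were C1ql2, its relative C1ql3 (355, 562, 600 and 529 in DG against 21 to 91 in CA3, log2 3.32 ± 0.30), the heparan sulfate proteoglycan Gpc4 (1.57 ± 0.14) and Slc30a3, the transporter that fills vesicles with zinc (1.78 ± 0.22). Genes used by most excitatory terminals were among those higher in CA3, such as the calcium sensor Syt1 (-0.68 ± 0.11), the active zone gene Rims1 (-0.91 ± 0.11), Nrxn3 (-0.68 ± 0.10) and the vesicular glutamate transporter gene Slc17a7 (-0.89 ± 0.17).

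In the postsynaptic list of 14 genes, 2 were higher in DG and 6 were higher in CA3. Nectin3 had 898, 1256, 1352 and 1517 in DG and 3344 to 4007 in CA3. Gpr158, the CA3 receptor for Gpc4, was also higher in CA3 (log2 -0.85 ± 0.13), as were Homer3 (-1.27 ± 0.19), Grik4, Flrt3 (-0.68 ± 0.16) and the scaffold gene Shank2 (-0.54 ± 0.11). Both members that were higher in DG are adhesion genes. Lrrtm4 had 2085, 2964, 3193 and 3262 in DG and 377 to 781 in CA3 (2.16 ± 0.18, adjusted p = 2.9e-06), and Kirrel3 differed by 1.46 ± 0.15. Grik2, the kainate receptor subunit found on both sides of this synapse, was not called (0.03 ± 0.09).

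The called kainate and NMDA receptor genes were all higher in CA3. Of 7 kainate receptor subunits and Neto proteins, Grik4 and Neto1 were called, both in CA3. Neto1, an auxiliary subunit that slows these receptors, had 2014, 2742, 3130 and 3229 in DG and 6666 to 10404 with a median of 8948 in CA3 (log2 -1.68 ± 0.16, adjusted p = 8.4e-06). Of 6 NMDA receptor subunits tested, Grin2a (-0.66 ± 0.13) and Grin2b (-0.68 ± 0.13) were higher in CA3, and no member was higher in DG. This one-sidedness was not stable, since each of the 2 lists had 1 call in DG without CA3 replicate 6. Control cultures, and lesioned wildtype cultures without the library in doubt, also had 1 DG call in each list. Without DG replicate 2, the kainate list had 1 as well.

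The list of 18 AMPA receptor genes had 2 calls in DG, Shisa9 (log2 1.41 ± 0.12) and Gsg1l (2.63 ± 0.31), and 3 in CA3, Shisa6 (-1.44 ± 0.14), Cnih2 (-0.73 ± 0.14) and the subunit gene Gria1 (-0.31 ± 0.10). Gria1 lost its call under 8 alternatives, with adjusted p up to 0.302 (no filter), among them leaving out any DG library or CA3 replicate 1 or 3. The subunit genes Gria2 (-0.28 ± 0.11) and Gria3 (-0.01 ± 0.10) were not called. Among 7 metabotropic receptors, 3 were higher in DG. Grm2, the autoreceptor of mossy fibres, had 266, 205, 220 and 151 in DG and 24 to 96 in CA3 (2.27 ± 0.34, adjusted p = 0.00033). Grm8 (1.81 ± 0.30) and Grm3 (0.49 ± 0.12) went with it.

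Of 12 GABA-A receptor subunits, 3 were higher in DG and 4 were higher in CA3. The delta subunit gene Gabrd, which gives granule cells tonic inhibition, had 96, 94, 82 and 67 in DG and 11 to 31 in CA3 (log2 1.87 ± 0.26, adjusted p = 0.00019). Gabrb2 (0.56 ± 0.14) was also higher in DG. Gabra5, the subunit of tonic inhibition in pyramidal cells, had 1412, 2634, 3551 and 4311 in DG and 6525 to 8542 in CA3 (-1.33 ± 0.23, adjusted p = 0.0012). Gabra2 (-0.69 ± 0.15) and Gabrb1 (-0.68 ± 0.13) were higher in CA3 as well. Without DG replicate 2, the DG calls of this list fell to 1 of 12 and the CA3 calls to 3.

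Of 23 sodium, calcium and HCN channel subunits, 1 was higher in DG and 10 were higher in CA3, with a median of -0.37. The CA3 genes included Scn1a (log2 -0.65 ± 0.10), Scn8a (-0.66 ± 0.10) and the N-type calcium channel gene Cacna1b (-0.63 ± 0.10). Scn3a, a sodium channel gene of young neurons, was the DG call (0.37 ± 0.10), which was lost under 5 alternatives, with the highest adjusted p of 0.111 without DG replicate 3. Potassium channels were split, with 6 of 28 higher in DG and 8 higher in CA3. Kcnq5, a subunit of the M-current channel, had 500, 867, 1023 and 1132 in DG and 3049 to 4588 in CA3 (-2.21 ± 0.20, adjusted p = 5.3e-06). Kcna1 (-0.90 ± 0.11) and Kcnma1 (-0.67 ± 0.11) were higher in CA3 too. On the DG side were Kcnh7 (1.32 ± 0.13) and the inward rectifier genes Kcnj9 (1.27 ± 0.14) and Kcnj2 (2.03 ± 0.32).

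Among 19 genes of the spine apparatus and calcium stores, 6 were higher in CA3 and 1 was higher in DG. Ryr3, a calcium release channel of the endoplasmic reticulum, had 549, 731, 909 and 844 in DG and 1443 to 2092 with a median of 1801 in CA3 (log2 -1.26 ± 0.15, adjusted p = 4.6e-05). Stim2, the calcium sensor of the store, had 1189, 1581, 1474 and 1325 in DG and 2632 to 3203 in CA3 (-1.07 ± 0.11). The pump gene Atp2a2 (-0.81 ± 0.10) and the alpha-actinin genes Actn1 (-0.54 ± 0.12) and Actn2 (-1.08 ± 0.28) were also higher in CA3. Synpo2, a relative of Synpo, was the DG call (0.95 ± 0.17).

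**Figure D3:**
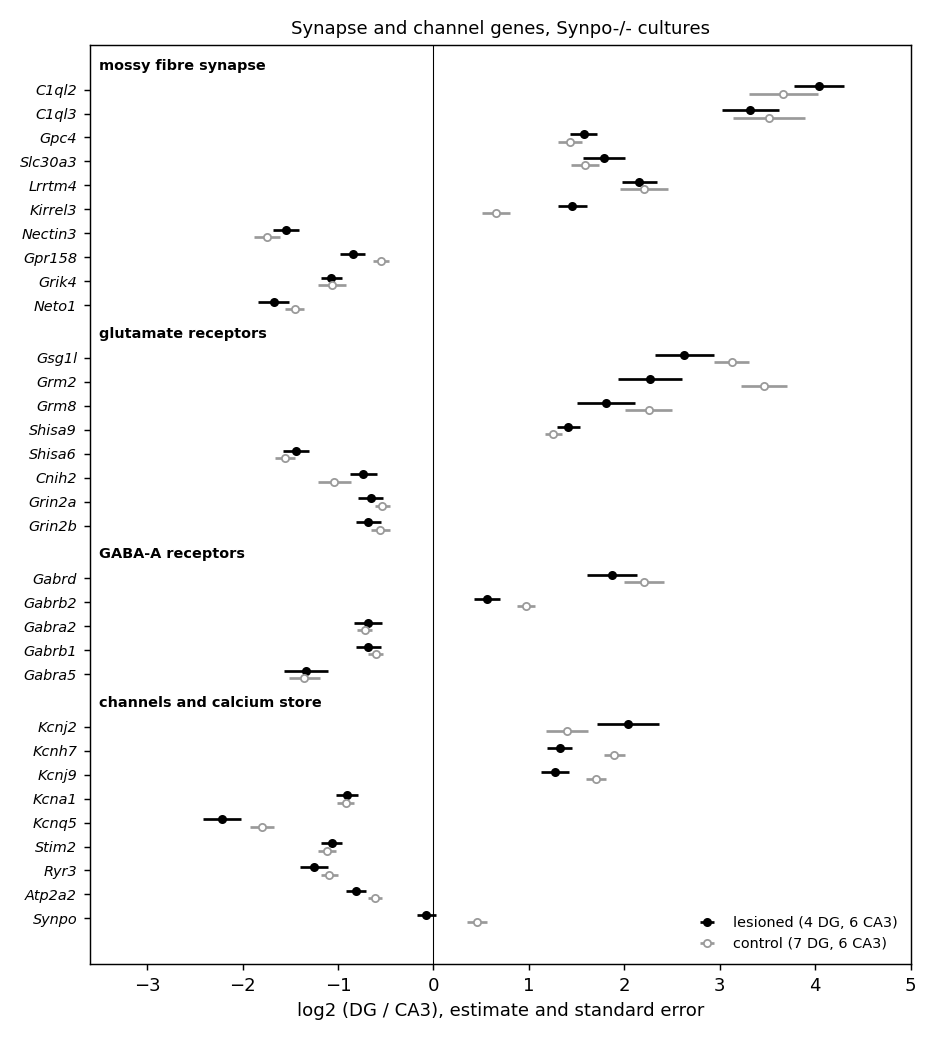
Log2 ratio of DG to CA3 with its standard error for 32 synapse, receptor, channel and calcium store genes in lesioned (filled) and control (open) Synpo-/- cultures. Genes above 0 are higher in DG. Synpo lies at -0.07 in lesioned and at 0.46 in control cultures.

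Peptide genes were mostly higher in DG, 9 of 17 against 2 higher in CA3, with a median of 0.81. Adcyap1, which encodes the peptide PACAP, had 254, 305, 371 and 618 in DG and 3 to 43 with a median of 10.1 in CA3 (log2 4.41 ± 0.45, adjusted p = 1.6e-05). Grp, the gastrin-releasing peptide gene, had 362, 288, 374 and 515 in DG and 13 to 70 in CA3 (3.10 ± 0.32). Pdyn, the dynorphin precursor of mossy fibres, differed by less (1.11 ± 0.27). The secretory granule genes Scg5 (-0.87 ± 0.16) and Chgb (-0.89 ± 0.20) were higher in CA3. Scg2 had a difference of 0.42 ± 0.13 that lost its call under 11 alternatives, with adjusted p up to 0.136 (without DG replicate 2).

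Axon guidance genes had 6 of 34 members higher in DG and 11 higher in CA3. The semaphorin genes Sema5a and Sema5b (log2 1.34 ± 0.21), the ephrin gene Efnb3 (1.2 ± 0.20) and the receptor gene Plxna3 (0.82 ± 0.16) were higher in DG. In CA3, Sema3e (-1.71 ± 0.19), Slit2 (-1.37 ± 0.20), Nrp1 (-0.76 ± 0.12) and the netrin receptor gene Unc5c (-0.73 ± 0.11) were higher. Of 13 genes of the perineuronal net and lectican matrix, Tnc (1.38 ± 0.24), Cspg5 (0.92 ± 0.11) and Ptprz1 (0.43 ± 0.09) were higher in DG and the link protein gene Hapln4 was higher in CA3 (-1.91 ± 0.16).

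**Figure D4:**
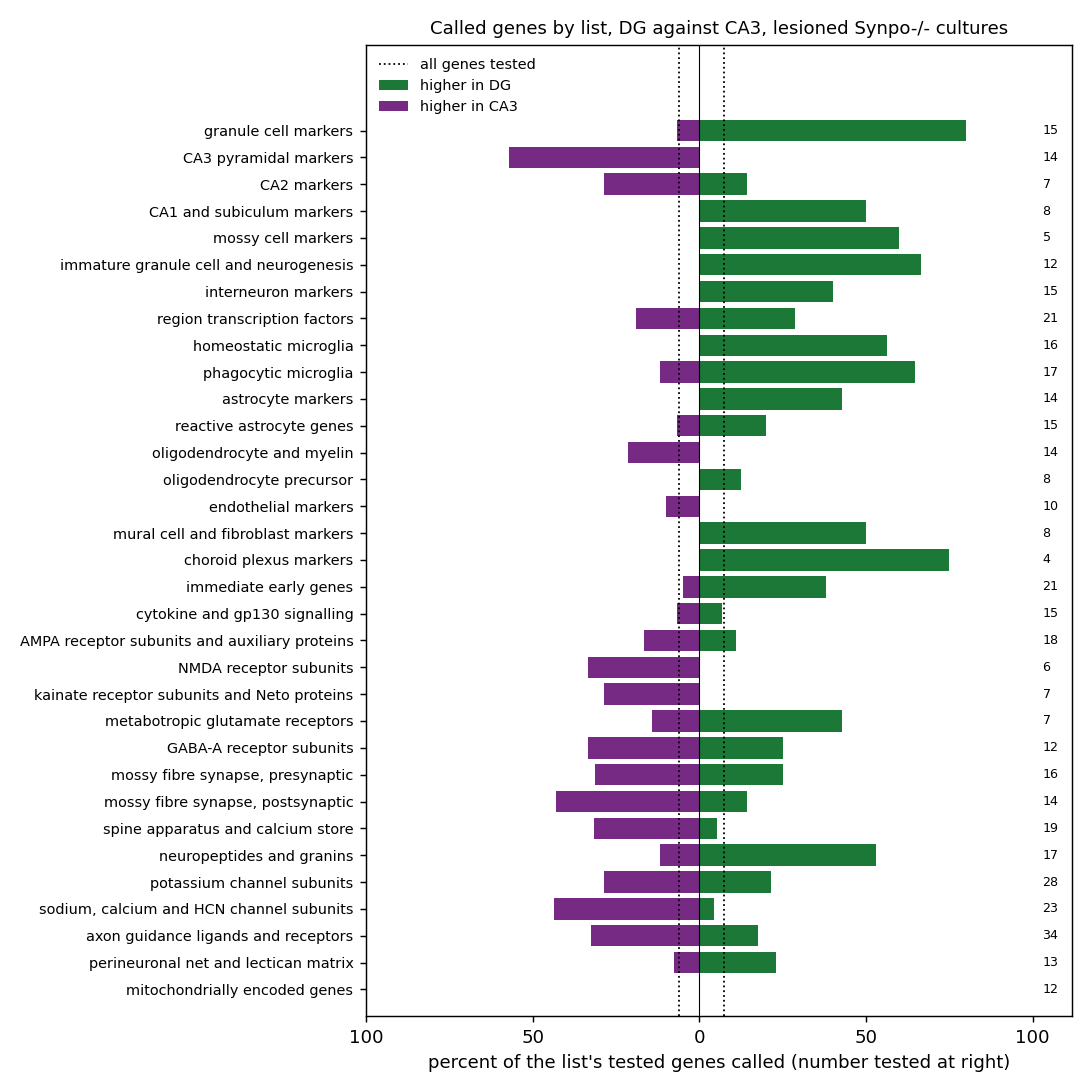
Share of each gene list's tested members (number at right) called higher in DG (green, to the right) or in CA3 (purple, to the left), with dotted lines at the shares of all genes tested, 7.37% and 6.24%. Granule cell, neurogenesis and microglial lists lie far to the right, and CA3, postsynaptic and sodium and calcium channel lists to the left.

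Genes of new granule cells were higher in DG, where neurogenesis goes on after birth. Of 12 listed, 8 were higher in DG and none was higher in CA3, with a median of 0.70. Sox11, a factor of immature neurons, had 2269, 2400, 1843 and 2267 in DG and 582 to 1212 with a median of 832 in CA3 (log2 1.33 ± 0.17, adjusted p = 8.3e-05). The proliferation gene Mki67 differed by 0.71 ± 0.16. Doublecortin (Dcx), the usual marker of young neurons, was not called, at 1039 to 1178 in DG and 1001 to 1187 in CA3.

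Of 15 interneuron markers, 6 were higher in DG, none in CA3 and 9 were not called, with summed levels of 1735 to 2630 CPM in DG and 1049 to 1455 in CA3. Reln (log2 1.85 ± 0.14), Ndnf (1.74 ± 0.25) and Vip (0.93 ± 0.13) led the list, while Gad1 (0.33 ± 0.15) and Gad2 (0.12 ± 0.12) were not called. Sst was highest in DG replicate 4, which had 21601 against 7229 to 9947 in the other DG libraries. Its log2 difference was 0.81 ± 0.25 (adjusted p = 0.043), and 0.34 (adjusted p = 0.22) without that library. Its call was lost under 11 alternatives in all. Of 5 mossy cell markers, 3 were higher in DG, led by Calb2 (3.30 ± 0.50), which ranged from 1432 to 9582 in DG. CA1 and subiculum markers had 4 of 8 members higher in DG, among them Pou3f1 (1.86 ± 0.34), at summed levels of 167 to 207 CPM in DG and 100 to 156 in CA3. Of 7 CA2 markers, Ntf3 was higher in DG (1.99 ± 0.22) and Amigo2 (-0.92 ± 0.25) and Necab2 (-0.89 ± 0.26) were higher in CA3. Without DG replicate 2, neither of these CA2 calls in CA3 remained.

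Of 8 mural cell and fibroblast markers tested, 4 were higher in DG. Rgs5, a pericyte gene, had 3456, 4849, 3365 and 4609 in DG and 543 to 1500 in CA3 (log2 1.89 ± 0.23). Dcn, a fibroblast proteoglycan, was highest in DG replicate 2, the library with choroid plexus transcripts, at 2688 against 633, 958 and 1700 in the others and 214 to 816 in CA3. Without that library, 2 of the 8 were called. The 3 calls among 4 choroid plexus markers were lost without it, and Ttr then had an adjusted p of 0.14. Of 10 endothelial markers, 1 was higher in CA3 (Egfl7, -0.60 ± 0.16), and its adjusted p was 0.0803 without DG replicate 1 and 0.0741 without DG replicate 2.

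Of 16 homeostatic microglial genes, 9 were higher in DG, none was higher in CA3 and 7 were not called. Aif1, which encodes the microglial protein Iba1, had 3631, 3598, 3689 and 3542 normalized counts in DG and 1695 to 2280 with a median of 1943 in CA3, without overlap (log2 0.89 ± 0.10, adjusted p = 4e-05). C1qc, a chain of the complement component C1q, had 5889, 3504, 6213 and 5531 in DG and 2339 to 3555 in CA3. Its lowest DG library lay just below the highest CA3 library (0.84 ± 0.16, adjusted p = 0.0021). P2ry12 (0.10 ± 0.18) and Tmem119 (0.33 ± 0.18), genes of resting microglia, were not called. The summed level of the list was 1614 to 2254 CPM in DG and 865 to 1319 in CA3.

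Genes of phagocytic microglia gave the same direction, with 11 of 17 higher in DG and 2 higher in CA3. Clec7a, a receptor of activated microglia, had 444, 475, 487 and 531 in DG and 198 to 292 in CA3 (log2 1.03 ± 0.12, adjusted p = 6e-05). The lysosomal genes Ctsz (0.83 ± 0.12), Ctsd (0.75 ± 0.14) and Cd63 (0.70 ± 0.12) were higher in DG as well. Lpl (-0.49 ± 0.11) and Gpnmb (-0.61 ± 0.15) were higher in CA3. Both genes act in lipid handling and phagocytosis but are also made by other cells.

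Of 14 astrocyte markers, 6 were higher in DG and none in CA3. Aldh1l1, a folate enzyme of astrocytes, had 1144, 1026, 904 and 951 in DG and 531 to 624 in CA3 (log2 0.78 ± 0.10, adjusted p = 8.6e-05). The water channel gene Aqp4 (0.73 ± 0.10) and the connexin gene Gja1 (0.82 ± 0.14) were higher in DG, but the glutamate transporter gene Slc1a2 (0.02 ± 0.13) was not called. Among 15 reactive astrocyte genes, Gfap, Vim and S1pr3 were higher in DG, and Cp was higher in CA3 (-0.69 ± 0.12). Gfap had 82482, 61799, 57434 and 54806 in DG and 26791 to 48046 in CA3 (0.67 ± 0.17, adjusted p = 0.016). Without DG replicate 1 its adjusted p was 0.074. Of 14 oligodendrocyte and myelin genes, 3 were higher in CA3, namely Ermn (-0.92 ± 0.20), Opalin (-0.92 ± 0.23) and Mal (-0.62 ± 0.18). In control cultures all 14 were called higher in CA3, with a median log2 difference of -1.23 against -0.40 after lesion. Their median summed level was 2268 CPM in control and 1428 in lesioned CA3, and 1000 and 1126 in DG. Gpr17 (1.67 ± 0.22), a receptor of precursors about to differentiate, was the 1 of 8 precursor markers called in DG.

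Many of the glial region differences differed from those of control cultures. The interaction of region and lesion in Synpo-/- cultures was called for 284 of 25435 genes (1.12%), above 0 for 223 (0.877%) and below 0 for 61 (0.24%). A value above 0 means that the DG minus CA3 difference was greater after lesion. With DESeq2 the counts were 441 and 239. Among the lists, 9 of 16 homeostatic and 9 of 17 phagocytic microglial genes, 5 of 14 astrocyte markers, 3 of 15 reactive astrocyte genes, 2 of 14 myelin genes and 4 of 21 immediate early genes had an interaction above 0. Not all glial calls were stable. Over 27 alternatives, Ctsb lost its call in 17, Cd68 and Itgam in 14 each, and C1qb and Acsbg1 in 13 each. Aif1, C1qc, Clec7a, Gfap and Aldh1l1 kept theirs in all 27. No granule cell, CA3, transcription factor, glutamate receptor, GABA-A receptor, guidance or mossy fibre gene of the lists was called. For lists of this size that is near the 1.12% of all genes, so it does not show that these genes were unchanged. Mitochondrially encoded genes took 8.97% to 11.8% of counts in the control DG libraries and 6.54% to 8.20% in the lesioned ones, and the part of this gap in the interaction was not tested.

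The group means of all regional libraries normalized together show where the glial values lay. Aif1 was 3377 ± 64 (SD, n = 4) in lesioned DG, 1652 ± 374 (n = 7) in control DG, 1818 ± 223 (n = 6) in lesioned CA3 and 1670 ± 250 (n = 6) in control CA3. Lesioned DG thus stood above the other groups, which overlapped (interaction log2 0.92, adjusted p = 0.013). C1qc was 4927 ± 1097 in lesioned DG and 2051 ± 676 in control DG, but 2747 ± 416 in lesioned and 3169 ± 818 in control CA3, so the region difference turned from -0.63 in control to 0.84 in lesioned cultures (interaction 1.48 ± 0.28, adjusted p = 0.0071). Gfap turned in the same way, from 25076 ± 3098 in control DG and 35293 ± 1842 in control CA3 to 59903 ± 11682 and 37640 ± 8242 (interaction 1.18, adjusted p = 0.0026).

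The 5 most significant interactions above 0 were glial or phagocyte genes for the most part, led by the astrocyte genes Slc25a18, a mitochondrial glutamate carrier (log2 1.24), and Aldh1l1 (0.87). Bcas1 (1.51) marks oligodendrocytes that have just begun to make myelin. Adgre1 (1.59) encodes the macrophage protein F4/80, and Cryba4 (2.02) a crystallin. All 5 had an adjusted p of 0.0012. Abca1, a cholesterol exporter singled out after its values were seen, was 4912 ± 383 in lesioned DG, 2166 ± 188 in control DG, 2089 ± 304 in lesioned CA3 and 1710 ± 131 in control CA3 (interaction 0.91, adjusted p = 0.0012).

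Immediate early genes are transcribed within minutes of a rise in neuronal activity. Of 21 listed, 8 were higher in DG (Nr4a1, Btg2, Egr2, Fos, Junb, Nr4a2, Egr1 and Egr4), 1 was higher in CA3 and 12 were not called, with a median of 0.46. The nuclear receptor gene Nr4a1 had 912, 606, 687 and 424 in DG and 105 to 248 with a median of 152 in CA3, without overlap (log2 2.06 ± 0.22, adjusted p = 2.1e-05). Btg2, an antiproliferative gene, had 6095, 5508, 5813 and 2914 in DG and 783 to 1736 in CA3 (2.06 ± 0.23). Fos had 4372, 4178, 2813 and 1470 in DG and 670 to 1680 in CA3, with DG replicate 4 below the highest CA3 library (1.56 ± 0.27, adjusted p = 0.0013). DG replicate 4 was the lowest DG library for Nr4a1, Btg2, Fos, Egr1, Egr2, Egr4 and Nr4a2.

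Other activity genes were not called in DG, which does not show that they were equal in the regions. Without CA3 replicate 6, 10 of the 21 listed genes were called in DG. Arc (log2 0.25 ± 0.30), Npas4 (0.60 ± 0.36), Bdnf (0.13 ± 0.16) and Nptx2 (0.20 ± 0.38) were not called. Ptgs2, the inducible cyclooxygenase gene, was higher in CA3, at 78, 187, 262 and 245 in DG and 991 to 1652 in CA3 (-2.61 ± 0.27, adjusted p = 1.6e-05), and it differed by -2.51 in control cultures. In the interaction of region and lesion, Nr4a1 (1.83, adjusted p = 0.0029), Nr4a2 (1.79, adjusted p = 0.013), Fos (1.30, adjusted p = 0.032) and Btg2 (1.22, adjusted p = 0.044) were called above 0. Over 27 alternatives Fos lost this call in 9, with adjusted p up to 0.118, and Btg2 in 15, with adjusted p up to 0.119. Nr4a1 was 614 ± 188 in lesioned DG, 105 ± 25 in control DG, 146 ± 44 in lesioned CA3 and 88 ± 26 in control CA3.

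The promoters of the listed immediate early genes were looked up. The motif TGACGT, the core of the site bound by the activity-regulated factor CREB, was searched on both strands in the 250 bases before each annotated start (RefSeq, GRCm38.p6). Of 32851 such windows in the table, 2125 (6.47%) hold it. Windows were found for 16 of the 21 genes, and it was present at 1 or more starts in 4 of the 7 that were higher in DG and in 5 of the other 9, with no sorting of the genes by region difference. The 3 DG genes that have a single annotated start and hold it are shown over those 250 bases, 5′ to 3′ on the strand of the gene, with the motif in capitals. Counted back from the start as base -1, it begins at base -66 in Fos and at bases -178 and -110 in Egr4, and in Btg2 a pair of overlapping matches on opposite strands begins at bases -166 and -164.
Fos, chr12:85473640-85473889, plus strand: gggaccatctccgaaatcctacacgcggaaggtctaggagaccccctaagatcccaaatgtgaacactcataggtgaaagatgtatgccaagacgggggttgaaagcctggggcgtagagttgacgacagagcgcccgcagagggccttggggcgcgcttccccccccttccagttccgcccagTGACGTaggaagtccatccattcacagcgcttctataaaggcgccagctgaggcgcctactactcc
Btg2, chr1:134079156-134079405, minus strand: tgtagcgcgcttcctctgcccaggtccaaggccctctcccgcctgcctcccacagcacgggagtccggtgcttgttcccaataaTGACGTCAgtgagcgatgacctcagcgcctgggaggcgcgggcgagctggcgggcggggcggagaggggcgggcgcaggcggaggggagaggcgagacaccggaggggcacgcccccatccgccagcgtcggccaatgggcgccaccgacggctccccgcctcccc
Egr4, chr6:85513590-85513839, minus strand: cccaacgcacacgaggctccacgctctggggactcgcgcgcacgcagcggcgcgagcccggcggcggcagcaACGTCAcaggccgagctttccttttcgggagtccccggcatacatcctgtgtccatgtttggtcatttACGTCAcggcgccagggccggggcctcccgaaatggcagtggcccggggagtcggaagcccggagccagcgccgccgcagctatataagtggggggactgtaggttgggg

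**Figure D5:**
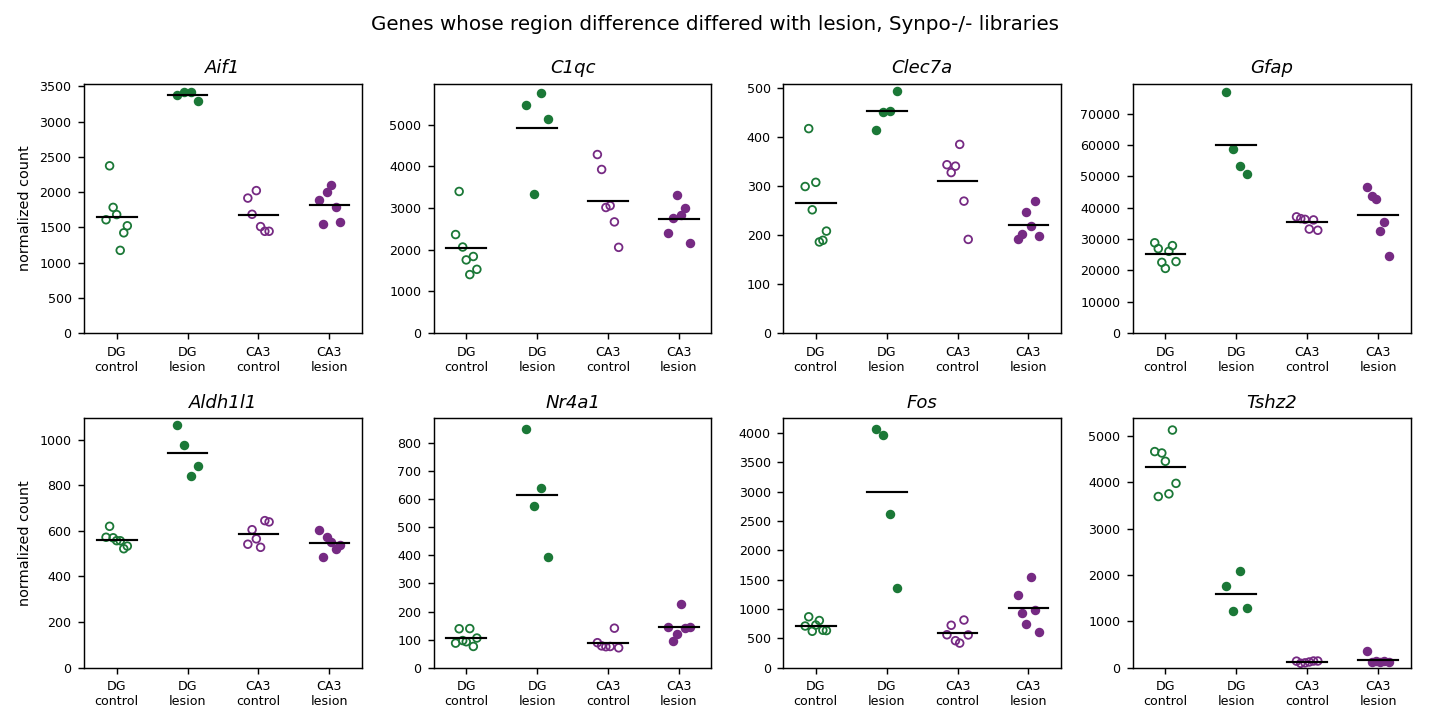
Normalized counts (all regional libraries but the wildtype controls normalized together) of 8 genes in each Synpo-/- library, as DG control (7), DG lesion (4), CA3 control (6) and CA3 lesion (6), with group means as lines. Aif1, C1qc, Clec7a, Gfap, Aldh1l1, Nr4a1 and Fos have their highest mean in lesioned DG, and Tshz2 has its highest in control DG.

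A smaller set had a lesser DG excess after lesion. Tshz2, a zinc finger transcription factor, was 9.54 times higher in DG than in CA3 after lesion, with 1899, 1288, 2246 and 1391 normalized counts in DG and 126 to 372 in CA3. In control cultures the difference was greater, since control DG had 4332 ± 535 (n = 7) against 1592 ± 409 (n = 4) in lesioned DG and the CA3 groups had 127 ± 22 and 168 ± 95 (interaction log2 -1.80 ± 0.30, adjusted p = 0.0029). Its relative Tshz3 had an interaction of -0.93, with 1594 ± 204 in control and 806 ± 123 in lesioned DG. Vegfa, the endothelial growth factor gene, differed between regions in control cultures (log2 1.10) but had 395, 441, 445 and 393 in lesioned DG and 298 to 550 in lesioned CA3 (-0.03 ± 0.15). Its interaction was -1.10 (adjusted p = 0.004). Dzank1 (-0.83) and 9130024F11Rik (-2.13) complete the 5 most significant interactions below 0.

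Of the others below 0, 3 neuronal genes were chosen after their values were seen. Kit, the receptor for the Kitl product, was 409 ± 90 in lesioned and 877 ± 122 in control DG, with 1086 ± 209 and 1039 ± 174 in CA3 (interaction -1.14, adjusted p = 0.0071). The calcium-dependent kinase gene Camk4 was 655 ± 177 in lesioned and 1195 ± 204 in control DG, with 2084 ± 298 and 1883 ± 194 in CA3 (-1.0, adjusted p = 0.016). Unc13c, a vesicle priming gene, was 118 ± 19 in lesioned and 680 ± 231 in control DG, with 77 ± 23 and 163 ± 30 in CA3 (-1.44, adjusted p = 0.020). Its call was lost in 3 of 27 alternatives, with adjusted p up to 0.082.

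The same region differences were then compared between the genotypes as labelled. In lesioned cultures, the interaction of region and genotype was called for 0 of 26482 genes (0%) by edgeR, with 617 genes (2.33%) at an unadjusted p under 0.05, and for 0 by DESeq2, with 716. Without the wildtype DG library in doubt the count was 0 as well, with 1054 at an unadjusted p under 0.05. Chance alone would give such a p to 5% of genes, more than was found. In simulated data this interaction test called 114 of 200 genes changed 4-fold. The 0 calls therefore do not show that the region differences were equal in the genotypes. For Prox1 the interaction was -0.34 ± 0.55 with that library and -0.49 ± 0.21 without it, and for Sv2b -0.56 ± 0.53 and 0.13 ± 0.20. In wildtype without that library, Tshz2 (log2 4.13), Prox1 (3.72), Nr4a1 (1.46), Abca1 (1.21) and Aif1 (0.80) were called higher in DG, and C1qc had a difference of 0.23 that was not called, against 0.84 in Synpo-/- cultures. Of 16 homeostatic microglial genes, 1 was called in DG (Aif1) and 1 in CA3 (Selplg, named after its value was seen) in these wildtype cultures, with a median of 0.27, and the difference from the Synpo-/- count was not tested.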

How the data were processed

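RNA was measured in single DG or CA3 pieces (low-input poly(A) kit, paired-end reads of 100 bp). The authors trimmed reads with cutadapt 3.5, aligned them with STAR 2.7.8a to mm10, kept libraries with over 60% of reads mapped uniquely and counted them per gene with featureCounts 2.0.1, without regard to strand. Overlapping and antisense genes therefore share reads. The deposited values are raw counts for 55291 gene symbols, 107 of which stand for more than 1 gene. Positions came from the deposited annotation (GRCm38).

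Groups followed the labels. The quasi-likelihood test of edgeR 4.0.16 (in R 4.3.3) was run for each comparison after filterByExpr and TMM scaling. A call needed a Benjamini-Hochberg adjusted p, taken over the whole table, of less than 0.05. A positive difference means higher in DG. Normalized counts were scaled to the geometric mean of the effective library sizes of the 10 libraries. For the interactions, the 33 libraries of all comparisons were used, without the wildtype controls. The SE of a log2 difference was derived from its F statistic. No molecular identifiers were used, so counting error understates the spread, which came from the replicates.

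The members and the 34 gene lists were chosen with earlier results of these data known. Named genes were Prox1, Dsp, Iyd and Synpo, the 12 calls of lowest p on each side (over 2-fold, mean normalized count over 300, no Gm, Rik or pseudogene models), up to 4 called members per list and direction, uncalled members where a role needed them, and 5 genes in each direction of an interaction. Calb1, Tdo2, Lct, Il16, further called list members, Abca1, Kit, Camk4 and Unc13c were added after their values were seen.

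Alternatives were DESeq2 1.42.0, RLE size factors, no filter, voom quality weights (limma 3.58.1), removal of the length trend (lowess span of 0.3, genes with a mean count over 50), a replicate block, all 4 Synpo-/- groups in 1 fit, the limit of 300, and leaving out each library. The replicate block used only libraries whose number was present in both regions. In tests on simulated data with 200 genes changed 4-fold, edgeR called 182 of them and 14 unchanged genes in the lesioned Synpo-/- region comparison (22767 genes), and 133 and 7 in the region by lesion interaction. In the region by genotype interaction it called 114 and 2. The co-immunoprecipitation libraries were not used here. Some listed genes are counted in their lists but not reported here by name.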

Additional observations from a re-analysis of the deposited data

Results flagged for a closer look

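In 106 groups of per-library values (53 genes in DG and CA3), 10 groups (9.43%) held a library far from the rest by Dixon's test at its 95% level, where chance gives about 1 in 20. In DG these were Ttr in replicate 2 (208164) and C1ql2 in replicate 1 (964). In CA3 they were Cabp7 in replicate 3 (1191), Bcl11b (709) and Nr4a1 (248) in replicate 4, Gpc4 (143) and Unc13c (134) in replicate 6, Tshz2 in replicate 1 (372), Dcn in replicate 3 (816) and Mbp in replicate 5 (4973). Each was the highest library of its group.

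Among these 53 genes, the region difference of 24 differed between lesioned and control Synpo-/- cultures by the edgeR interaction test. The share over all genes tested was 1.12%, but several of the 53 were chosen for this interaction. Called genes outside the 53, such as Nr4a2, are not in this count. On the log2 scale the interaction was above 0 for the microglial genes Aif1 (0.92), Cx3cr1 (0.99), Clec7a (1.27), C1qc (1.48) and Adgre1 (1.59), for the astrocyte genes Aqp4 (0.64), Vim (0.66), Aldh1l1 (0.87), Gfap (1.18) and Slc25a18 (1.24), for Abca1 (0.91), Bcas1 (1.51) and Cryba4 (2.02), and for the immediate early genes Btg2 (1.22), Fos (1.30) and Nr4a1 (1.83). It was below 0 for Tshz2 (-1.80), 9130024F11Rik (-2.13), Unc13c (-1.44), Kit (-1.14), Vegfa (-1.10), Camk4 (-1.0), Tshz3 (-0.93) and Dzank1 (-0.83).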

How the results depend on the processing

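The comparison of lesioned Synpo-/- regions called 3098 genes, 4799 with voom quality weights and 1889 with the mean count limit of 300. Leaving out 1 library gave 2118 (DG replicate 1) to 4869 (CA3 replicate 6) calls. Over 2-fold, 871 became 264 with the limit of 300 and 696 to 1113 without 1 library. The limit of 300 was not a new test and only left out the calls of genes with lower counts. The cause of the other shifts was not tested. In the control comparison, leaving out 1 library gave 4506 to 5526. In wildtype, 492 calls became 1513 with DESeq2, 1190 with no filter and 0 to 4746 without 1 library, the highest without DG replicate 5. The region by lesion interaction had 284 calls, 680 with DESeq2 and 131 (without lesioned DG replicate 1) to 401 (without control CA3 replicate 6) when 1 library was left out, with 179 without control CA3 replicate 3. The region by genotype interaction had 0 to 1. With the replicate number as a block, the lesioned comparison had 4406 calls and the interaction 478. Both of these fits left out lesioned CA3 replicates 5 and 6, and the interaction also left out control DG replicate 7. Deviations of same-numbered DG and CA3 libraries correlated by -0.10 to 0.12 in lesioned and by -0.02 to 0.54 in control cultures. Not every pair was over 0.1 in either, so the numbers were not taken as pairs.

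Of 226 called members of the lists and named genes, 179 kept their call and direction under every refit that gave an adjusted p (the limit of 300 is no refit), and 47 lost the call under at least 1. Beside Iyd, Gria1, Scg2, Scn3a, Sst, Egfl7, Gfap and Ttr, described above, the genes named in the text that lost it without 1 library were Egr4 (highest adjusted p over all refits 0.168), Necab2 (0.108), Mal (0.107), S1pr3 (0.0901), Amigo2 (0.0787), Grm3 (0.072), Gabrb2 (0.0528), Gpnmb (0.0506) and Pdyn (0.05). The choroid plexus marker Clic6 (2.77) reversed to -0.68 without DG replicate 2 and to -0.65 without DG replicate 2 and CA3 replicate 6, an alternative chosen after seeing the data, and it reached 3.17 without DG replicate 4. A term for sex-linked transcripts, also added later, gave 3495 calls. The 4 DG libraries limit the precision.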

Other observations

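Cck, which encodes the peptide cholecystokinin, varied more within the regions than between them. It had 550, 251, 1999 and 2378 normalized counts in DG replicates 1 to 4 and 117 to 1936 with a median of 720 in CA3, a log2 difference of 0.55 ± 0.74 (adjusted p = 0.73). Its adjusted p was 0.024 to 0.97 over the alternatives, the lowest with a term for whether Xist or Y-linked transcripts were the higher, which divided the DG libraries 2 and 2 and the CA3 libraries 3 and 3. In control cultures Cck was higher in DG (1.54).

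Mitochondrially encoded genes had no call between the regions in 12 tested, with a median log2 difference of -0.30. Of 15 cytokine and gp130 signalling genes tested, the shared receptor subunit gene Il6st was higher in DG (0.65 ± 0.12) and the receptor gene Lifr in CA3 (-0.55 ± 0.10). These counts of 1 in each direction were near the shares of all genes tested, 7.37% and 6.24%. Il6 and Tnf were too low to be tested. Sex-linked genes had no call.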
